A study of Mus musculus with 58 samples.

Results

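The data described here are the levels of 10 genes of the ATF4 branch of the integrated stress response in whole mouse retina, followed over the day in control and diabetic animals. The genes were chosen by symbol (Atf4, Ddit3, Trib3, Chac1, Sesn2, Asns, Phgdh, Psat1, Slc7a11 and Ppp1r15a), and all 10 were found among the 52459 symbols of the deposited count table. Diabetic retinas came from male C57BL/6-Ins2Akita/J mice, heterozygous for a mutant insulin 2 allele that makes misfolded insulin in the beta cells of the pancreas, so that hyperglycemia starts there and not in the retina. Control retinas came from littermate males labelled C57/BL/6, which lack the allele. All mice were 4 months old and lived under 12 h of light and 12 h of darkness. Total RNA without ribosomal RNA was sequenced from 58 retinas collected at ZT1, 5, 9, 13, 17 and 21, where ZT counts the hours after lights on. There were 5, 6, 5, 5, 5 and 4 control libraries and 5, 5, 5, 4, 4 and 5 diabetic libraries at these times. Retinas of the dark phase were dissected under dim red light, so that light at collection and time of day cannot be told apart.

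The integrated stress response begins with kinases that phosphorylate the translation factor eIF2 when proteins misfold, amino acids run short, heme is lacking or a virus is sensed. Most protein synthesis then slows, while the mRNA of ATF4, a basic leucine zipper transcription factor, is translated more. ATF4 therefore can act without a change of its own mRNA, and the mRNAs of its targets are the usual readout of the pathway. In the retina the pathway is best known from photoreceptors and ganglion cells under endoplasmic reticulum stress, and serine made by Phgdh and Psat1 is known as a product of Müller glia.

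ATF4 binds DNA together with C/EBP proteins at a composite element, TGATGNAA. This element was searched on both strands in RefSeq promoter windows (GRCm38.p6) that reach from 250 bases before to 50 bases after the transcription start. All 10 genes had a window, with 11 windows in all because Psat1 had an additional one. The element was present in 4 of the 10 genes, and in 3.97% of the 32851 windows of all genes. The stretches that hold it are shown because they hold the letters of the element that ATF4 binds, with the element in capitals and each stretch written 5′ to 3′ on the strand of its gene.
Chac1: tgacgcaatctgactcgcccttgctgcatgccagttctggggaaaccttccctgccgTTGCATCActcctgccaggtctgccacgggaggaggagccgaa
Slc7a11: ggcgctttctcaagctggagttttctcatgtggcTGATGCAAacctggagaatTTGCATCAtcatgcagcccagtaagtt
Asns: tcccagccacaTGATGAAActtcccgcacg
Trib3: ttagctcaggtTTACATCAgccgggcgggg

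The stretch of Chac1 lies at chr2:119350992-119351091 on the plus strand and holds 1 copy of the element, which begins 193 bases before the start. The stretch of Slc7a11, at chr3:50443634-50443713 on the minus strand, holds 2 copies in opposite orientation that begin 66 and 47 bases before the start. In Asns the element begins 23 bases before the RefSeq start (chr6:7693214-7693243, minus strand), a position that already lies inside the gene in the Gencode M21 annotation (chr6:7675169-7693254). In Trib3 it begins 15 bases after the start (chr2:152344028-152344057, minus strand) by RefSeq, which lies upstream of the gene in the Gencode M21 annotation (chr2:152337422-152344032). The E-box CACGTG, the element of clock activators, was in none of the 10 genes and in 7.15% of all windows. The antioxidant element TGACNNNGC, bound by NRF2, was in 4 of the 10 (Phgdh, Sesn2, Asns and Ppp1r15a) and in 12.4% of all windows. A match is a stretch of letters and not a measured site, and a missing match says only that these letters are not in the window.

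The deposited counts summed to between 7773117 and 22147398 per library, with a median of 15406440, and the 10 genes had raw counts from 12 (Chac1) to 4371 (Atf4) in single libraries. All of them passed the filter of a median above 4 normalized counts (counts divided by the library's DESeq2 size factor), as did 19120 genes in all. Libraries stood apart in a pair of ways. On the first principal component of log2 CPM, which held 18.0% of the variance, control ZT17 replicates 1 and 3 and diabetic ZT17 replicate 3 lay lowest. Lens markers (Cryaa, Cryba1, Crygs, Mip and Lim2), genes of a tissue outside the retina, summed to between 21701 and 31583 normalized counts in control ZT1 replicate 6, control ZT17 replicate 5 and control ZT21 replicate 2, and to at most 666 in the other 55 libraries. Values without them stand beside the results they moved. Markers of rods, cones, Müller glia, bipolar, amacrine and ganglion cells were present in all libraries, as the label retina requires.

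Per kilobase of exon, the 10 genes spanned 2 orders of magnitude. Atf4 (chr15:80255184-80257541) stood highest, at 66.9 ± 10.8 FPKM (SD, n = 30) in control and 75.1 ± 11.5 (n = 28) in diabetic retinas, where FPKM is TMM-normalized CPM per kilobase of the union of a gene's exons. Ddit3, the transcription factor CHOP that ATF4 induces on the way to cell death, followed with 13.1 ± 1.78 FPKM in control retinas. Asns, which makes asparagine, had 10.6 ± 1.05 FPKM, and its range overlapped that of Ddit3. Psat1, an enzyme of serine synthesis, and Sesn2, a sensor of leucine that restrains mTORC1, were level at 6.94 ± 0.700 and 6.83 ± 0.972 FPKM. Ppp1r15a, the GADD34 subunit that directs a phosphatase back to eIF2, had 5.12 ± 1.02 FPKM, and Trib3, a pseudokinase that restrains ATF4, had 3.31 ± 0.497. At the bottom were Chac1, which breaks down glutathione, Phgdh, the first enzyme of serine synthesis, and Slc7a11, the cystine importer xCT, with 1.42 ± 0.333, 1.36 ± 0.444 and 0.658 ± 0.241 FPKM. Chac1 and Phgdh did not differ beyond their spread, and their order turned when the longest transcript was taken as the length, which also set Psat1 (11.3 FPKM) further apart from Sesn2. The diabetic levels kept the order of the control levels at the top, from Atf4 through Ddit3 to Asns. In whole retina, fewer cells of a type and less RNA per cell cannot be told apart.

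**Figure D1:**
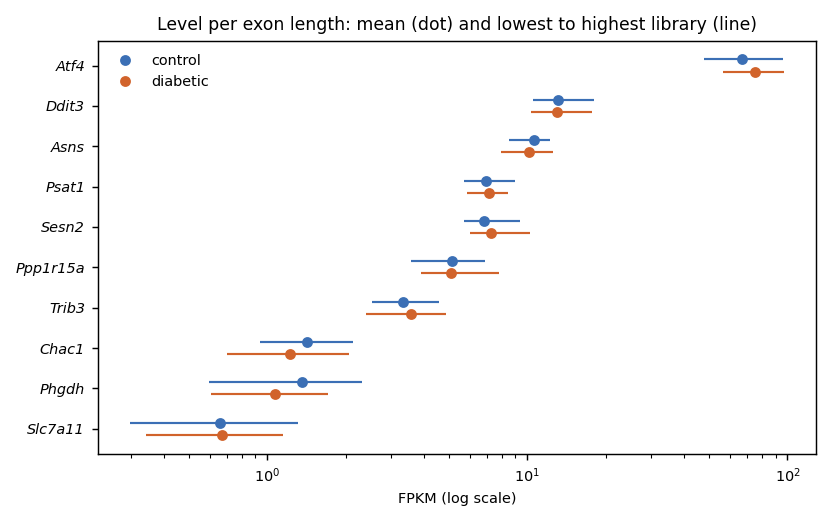
Level of the 10 genes per exon length, in FPKM on a log axis, with the mean as a dot and the lowest to highest library as a line, for 30 control (blue) and 28 diabetic (orange) retinas. Atf4 lies above all other genes in every library, and Chac1, Phgdh and Slc7a11 lie at about 1 FPKM.

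The first comparison asked whether the genes differ between diabetic and control retinas over all time points. None of the 10 genes passed an adjusted p of 0.05 in edgeR's quasi-likelihood test, where 574 of 19120 genes, or 3.00%, passed. The median difference over the 10 was 0.01 on the log2 scale, with 5 higher and 5 lower in diabetic retinas, against a median of 0.00084 over all genes tested. At an unadjusted p under 0.05 there were 3 of the 10 (Phgdh, Atf4 and Chac1) and 2974 of all genes, and DESeq2's test called none of the 10 either, with 668 calls in all.

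Atf4 itself had the highest positive difference. It ranged from 1628 to 3254 normalized counts with a median of 2192 in control retinas, and from 1922.5 to 3291 with a median of 2575 in diabetic retinas, so the groups overlapped over most of their range. The difference was 0.17 ± 0.06 (log2, SE), or 12.2% more mRNA in diabetic retinas, with a 95% interval from 0.05 to 0.28, and missed the threshold (edgeR, unadjusted p = 0.00423, adjusted p = 0.0912). It was positive at each of the 6 time points, from 0.07 at ZT9 to 0.29 at ZT21, although at ZT9 it turned to -0.02 without diabetic ZT9 replicate 4. With the time point as a term in the fit the adjusted p was 0.0483, and with that term but without the 3 libraries rich in lens markers it was 0.0519, with a difference of 0.16 in each. Leaving out control ZT9 replicate 4 or control ZT1 replicate 6 alone also brought it under the threshold, at 0.0368 and 0.0450. The within-group correlation of Atf4 with the first principal component was -0.81. The median on this component was 3.38 in control and -0.91 in diabetic libraries, and its part in the difference was not tested.

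Phgdh had the most negative difference. Control retinas ranged from 21.4 to 83.2 normalized counts with a median of 44.3, and diabetic retinas from 21.9 to 62.0 with a median of 37.8. The lowest libraries of both genotypes were alike, and the control group reached higher. The difference was -0.34 ± 0.11 (log2, SE), 21.1% less in diabetic retinas (95% interval from -0.56 to -0.12), with an adjusted p of 0.0691 in edgeR's test, and it was negative at all 6 time points. The 3 control libraries rich in lens markers held 80.9, 83.2 and 63.1 normalized counts of Phgdh, among the highest of all. Without them the difference was -0.25 (adjusted p = 0.232). With the time point as a term it was -0.36 with an adjusted p of 0.0221, and with that term but without these libraries -0.27 with an adjusted p of 0.083. Leaving out control ZT1 replicate 3, control ZT5 replicate 2, diabetic ZT17 replicate 1 or diabetic ZT21 replicate 2 alone gave adjusted p values from 0.0379 to 0.0478. Summed markers of the pigment epithelium, which adheres to the retina, had a median of 1489 normalized counts in control (282 to 2830) and 959 in diabetic retinas (249 to 2951), with none of the 6 markers at a median of 0 in either genotype, and their within-group correlation with Phgdh was 0.41 over the 58 libraries (0.40 and 0.41 without either set in doubt), which their shared library scaling also enters. Summed markers of the cornea and ciliary body, none of which passed the filter on low counts, had a median of 14.3 normalized counts in control (1.16 to 517) and 15.04 in diabetic retinas (3.54 to 165), with 1 of the 5 at a median of 0 in each genotype. Their within-group correlation with Phgdh was 0.43, and 0.47 and 0.26 without either set in doubt. The part of both marker lists in the difference was not tested. All 5 markers of Müller glia missed the threshold, and their sum had a median of 41770 in control and 41940 in diabetic retinas.

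Chac1 was also lower at all 6 time points, by 0.21 ± 0.09 (log2, SE) over all of them (95% interval from -0.39 to -0.02, edgeR adjusted p = 0.257). Its libraries ranged from 22.2 to 50.5 normalized counts with a median of 32.6 in control and from 16.6 to 49.0 with a median of 29.3 in diabetic retinas, a nearly complete overlap. Without the libraries rich in lens markers the difference was -0.17. The sign turned at ZT1 without those libraries (0.01), at ZT17 without the libraries apart on the first principal component (0.07), and at ZT5 without control replicate 1 (0.03) or diabetic replicate 1 (0.0048).

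The other 7 genes had intervals that included 0. Ddit3 differed by -0.02, with a 95% interval from -0.11 to 0.08, Psat1 by 0.03 (-0.04 to 0.11) and Asns by -0.06 (-0.14 to 0.02). These 3 genes had the narrowest intervals of the 10. Sesn2 had a difference of 0.08 (-0.02 to 0.18) and Trib3 of 0.11 (-0.01 to 0.24). Ppp1r15a, at 0.00 (-0.14 to 0.13), and Slc7a11, at 0.02 (-0.21 to 0.24), were the least precise of those near 0. The sign of Ppp1r15a turned without the libraries rich in lens markers (0.01).

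**Figure D2:**
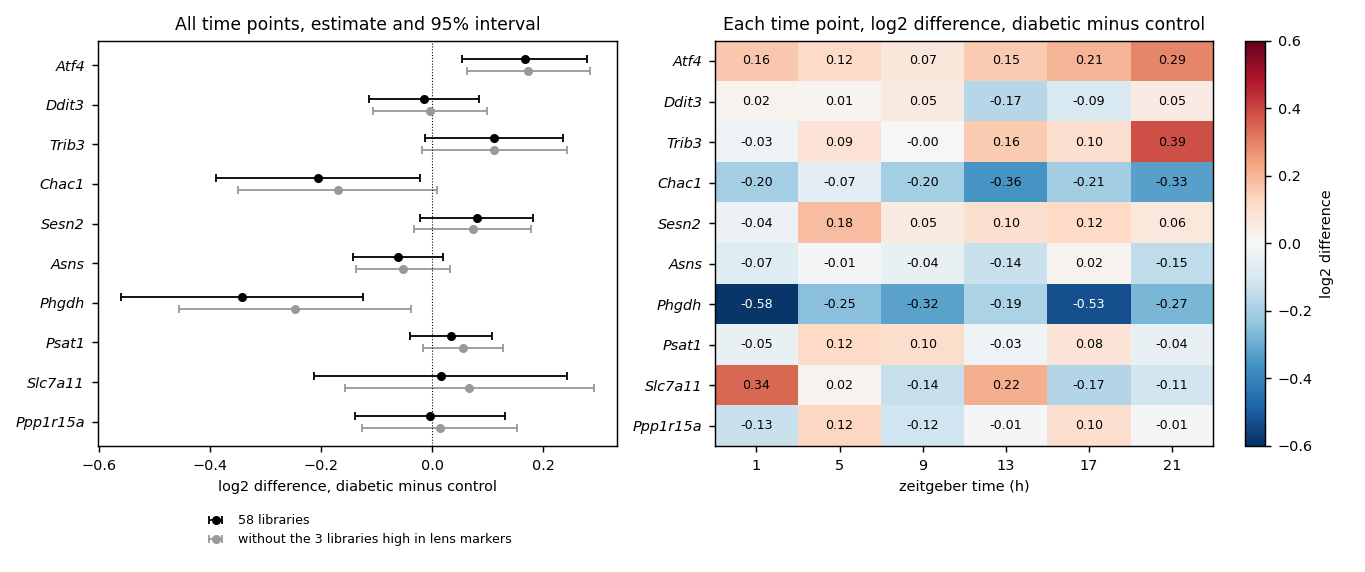
Difference between diabetic and control retinas on the log2 scale, over all time points with 95% intervals (left, black for 58 libraries and grey without the 3 libraries rich in lens markers) and at each time point as a colour and value (right). Over the 58 libraries Atf4 is positive and Phgdh and Chac1 are negative at all 6 time points, with the sign of Chac1 turning at ZT1 without the libraries rich in lens markers, and no gene passed an adjusted p of 0.05.

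At single time points, none of the 10 genes passed either. Over all genes the share that passed in edgeR's test was highest at ZT17, with 0.173%. It was 0.0105% for ZT1, 0.0209% for ZT5 and 0.00523% for ZT9, and 0% for both ZT13 and ZT21. At ZT13 and ZT21, 851 and 882 genes had an unadjusted p under 0.05, and DESeq2 called 1 and 2. Of the 10 genes, unadjusted p values under 0.05 came from Phgdh at ZT1 and ZT17 and from Atf4 and Trib3 at ZT21.

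Trib3 at ZT21 had the smallest of these values. Its control libraries held 78.2, 87.1, 101.9 and 103.7 normalized counts, and its diabetic libraries 126.7, 103.9, 141.6, 132.1 and 105.8. The groups did not overlap, although the highest control and the lowest diabetic library lay 1 count or less apart. The difference was 0.39 ± 0.14 on the log2 scale (edgeR, unadjusted p = 0.00978, adjusted p = 0.812), the highest of the differences of the 10 genes at single time points. Without the libraries rich in lens markers it was 0.36 (unadjusted p = 0.0303).

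Atf4 at ZT21 had 1894, 1854, 2178 and 2581 normalized counts in control and 2643, 1922.5, 2940, 2873 and 2684 in diabetic retinas. Of the 5 diabetic libraries, 4 lay above every control library, and the difference was 0.29 (edgeR, adjusted p = 1.00), or 0.23 without the libraries rich in lens markers. The median on the first principal component, on which both genes lay negatively, was -0.875 in control and -10.5 in diabetic libraries at ZT21, and its part in these differences was not tested.

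For Phgdh at ZT1, the control libraries held 35.6, 40.6, 24.3, 40.2 and 80.9 normalized counts and the diabetic libraries 29.9, 37.4, 21.9, 27.9 and 34.1. The value of 80.9 belonged to replicate 6, which was rich in lens markers, and the difference moved from -0.58 to -0.24 without such libraries. At ZT17 the control libraries held 64.3, 39.2, 75.8, 33.3 and 83.2 and the diabetic libraries 62.0, 40.7, 31.6 and 30.2 normalized counts. The groups overlapped there too, and the difference moved from -0.53 to -0.38 in the same way. Without the libraries apart on the first principal component, which include control replicate 3 with 75.8, it was -0.34 (unadjusted p = 0.264).

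Whether the genotype difference varied over the day was tested with the interaction of genotype and time point. In edgeR's test none of the 10 genes passed, with unadjusted p values from 0.372 (Trib3) to 0.960 (Chac1). The share over all genes was 0%, with 514 genes at an unadjusted p under 0.05 and 2 calls by DESeq2.

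**Figure D3:**
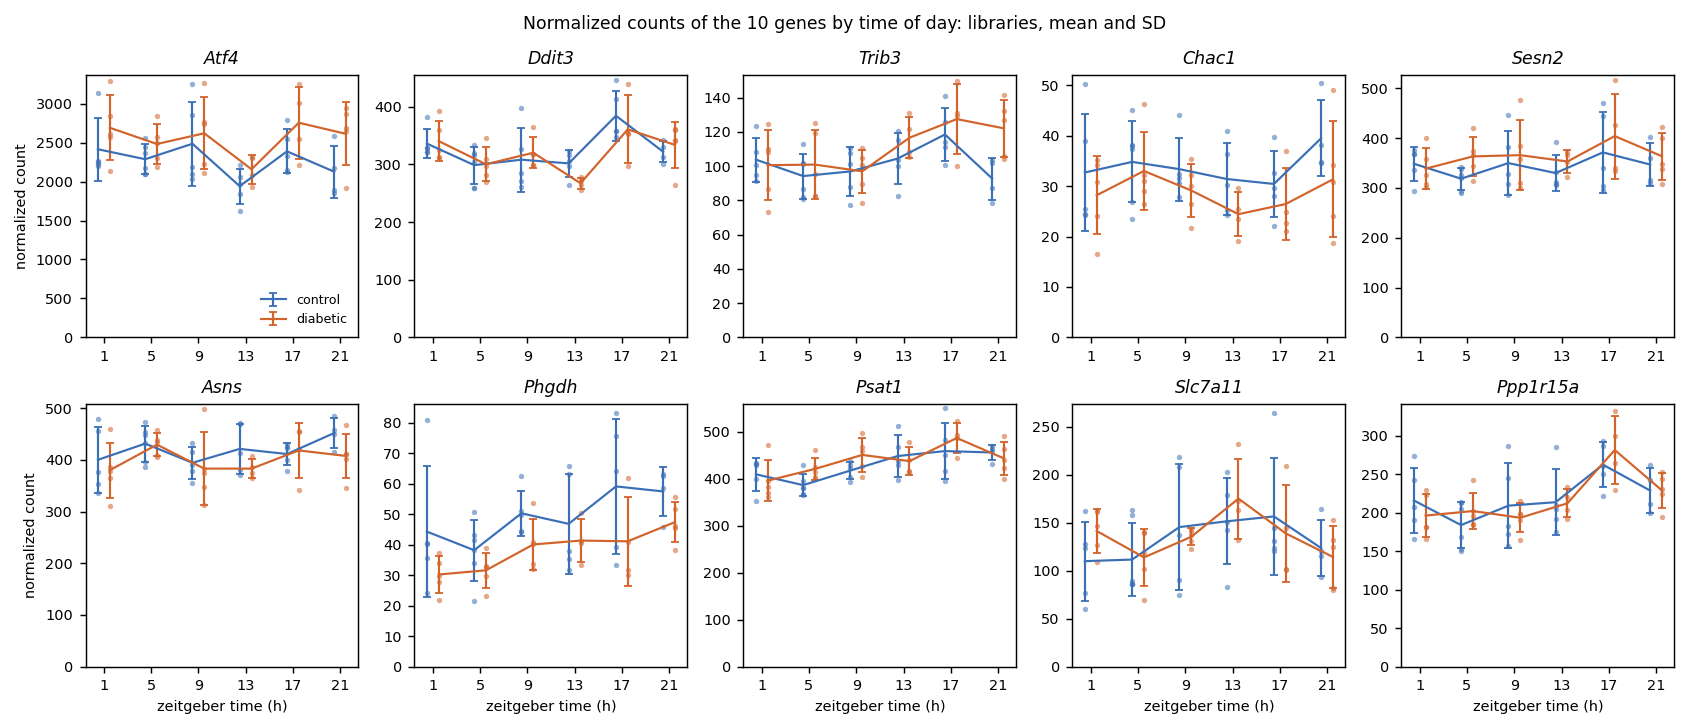
Normalized counts of the 10 genes (vertical axes, each from 0) against zeitgeber time in hours, with each library as a point and the mean ± SD of each group of 4 to 6 libraries as a line, control in blue and diabetic in orange. Ppp1r15a, Ddit3, Trib3, Sesn2 and Psat1 have their highest means at ZT17 in both genotypes, the time that holds the libraries apart on the first principal component. The points of the genotypes overlap for nearly every gene and time.

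The next comparison asked whether the genes vary with the time of day within a genotype, with no shape assumed. In control retinas 1 of the 10 genes passed edgeR's test over the 6 time points, against 9.10% of all genes, and in diabetic retinas 2 of the 10 passed, against 10.1%. The gene called in both was Ddit3, and Ppp1r15a was the additional one in diabetic retinas.

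Ddit3 had its highest mean in the night in both genotypes, although in diabetic retinas its lowest mean was in the night as well. In control retinas its mean was highest at ZT17, with 413, 347, 446, 358 and 358 normalized counts, and lowest at ZT5, with 299 ± 32.3 (SD, n = 6) and no library above 334. No ZT17 library fell to the level of ZT5. In diabetic retinas the lowest time was ZT13, with 278, 271, 265 and 256 normalized counts, and the highest again ZT17, with 354, 440, 297 and 353. The adjusted p was 0.0358 in control and 0.0431 in diabetic retinas (edgeR). Control ZT17 replicates 1 and 3 and diabetic ZT17 replicate 3, which stood apart on the first principal component, held the highest ZT17 values, and without these 3 the adjusted p was 0.395 in control and 0.0878 in diabetic retinas. The control call was also lost without control ZT5 replicate 1 (0.0628) or 2 (0.0617), ZT13 replicate 2 (0.0523) or ZT17 replicate 1 (0.128) or 3 (0.216) alone. The diabetic call was lost on leaving out any 1 of 16 diabetic libraries, at adjusted p values from 0.0526 to 0.111. These were ZT1 replicates 2 and 5, ZT5 replicates 2, 3 and 5, all 4 of ZT13, ZT17 replicates 1, 3 and 5, and ZT21 replicates 1, 3, 4 and 5. Without the libraries rich in lens markers it was 0.0516 and 0.0465. Of the 1713 exon bases of Ddit3, 68 lie opposite exons of Mars, a gene with a mean of 910 normalized counts, and whether strand was used in counting is not given in the sources used here.

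Ppp1r15a in diabetic retinas was highest at ZT17, with 229, 332, 264 and 300 normalized counts, and lowest at ZT9, with 164, 199, 191, 215 and 198. All ZT17 libraries lay above all ZT9 libraries, and the adjusted p was 0.0343. Control retinas had the same time of the highest mean, 262 ± 28.8 (SD, n = 5) at ZT17 against 184 ± 29.9 (n = 6) at ZT5, with an adjusted p of 0.112. The diabetic call was lost without diabetic ZT17 replicate 3 (adjusted p = 0.221), replicate 4 (0.0557) or replicate 5 (0.133) or without diabetic ZT9 replicate 1 (0.057), and without the 3 libraries apart on the first principal component it was 0.214. Psat1 missed the threshold in both genotypes (adjusted p = 0.0766 and 0.105), and in control retinas it passed without those 3 libraries (0.0117). For the other 7 genes the adjusted p lay between 0.148 and 0.861.

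A test for a 24 h rhythm was applied next, with empirical JTK_CYCLE, a permutation test that compares the best match to 30 waveforms with that of shuffled series. A gene was called rhythmic at an unadjusted permutation p under 0.05 with a minimum fold between the highest and lowest library, the kind of rule given in the methods. By this rule 3 of the 10 genes were rhythmic in control retinas (Ddit3, Psat1 and Ppp1r15a), where 21.8% of all genes were, and 5 of the 10 in diabetic retinas (the same 3 with Trib3 and Phgdh), where 23.9% were. After Benjamini-Hochberg adjustment over all genes 1 of the 10 was left in each genotype, Psat1 in control (0.0298) and Ppp1r15a in diabetic retinas (0.0245). The share of all genes left after adjustment was not counted, so these counts cannot be set against it.

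The fitted peak times of these 3 control and 5 diabetic calls, which share 3 genes, fell in the dark phase, as did those of 49.2% of all rhythmic genes in control and 51.8% in diabetic retinas. Ppp1r15a had a fitted peak at ZT17.9 ± 1.27 h (SE) in control and ZT17.5 ± 0.912 h in diabetic retinas, with a relative amplitude of 13.98% ± 4.49 and 15.6% ± 3.75 of its mean level. Its permutation p was 0.0493 and 0.00168. The errors of both values overlapped between genotypes. The control call was lost when 19 of the 30 control libraries were left out 1 at a time.

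Psat1 peaked at ZT16.9 ± 0.959 h in control and ZT15.0 ± 1.17 h in diabetic retinas. Its amplitude was small, 8.65% ± 2.06 and 7.18% ± 2.27, and the means of its time points differed by a fold of 1.19 and 1.23 at most. Both calls held with each library left out, and both were lost where the fold was taken between time point means.

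Ddit3 had peaks at ZT19.1 ± 1.30 h and ZT21.5 ± 1.74 h, with amplitudes of 9.36% ± 3.19 and 7.70% ± 3.38. The diabetic call, at a permutation p of 0.0483, was kept in 10 of 28 runs that left out a library, and the control call in 30 of 30. In edgeR's cosine test without a replicate block Ddit3 missed the threshold in both genotypes (adjusted p = 0.0856 in control and 0.214 in diabetic retinas). Trib3 was called in diabetic retinas alone, with a peak at ZT17.6 ± 1.08 h and an amplitude of 14.3% ± 4.09, while its control amplitude was 7.79% ± 3.61. Its diabetic call was kept in 22 of 28 runs that left out a library, and lost at a permutation p of up to 0.0806 without diabetic ZT17 replicate 1, 3 or 5 or diabetic ZT21 replicate 1, 3 or 4. Without the 3 libraries apart on the first principal component its diabetic call and the control call of Ppp1r15a were lost, at a permutation p of 0.0796 and 0.144. Phgdh was likewise called in diabetic retinas alone, although its amplitudes of 17.3% ± 6.21 in diabetic and 17.8% ± 7.83 in control retinas were alike. In edgeR's cosine test its unadjusted p was smaller in control (0.0317, adjusted 0.144) than in diabetic retinas (0.0716, adjusted 0.232).

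A call in 1 genotype and not in the other is not a difference, and the difference in rhythm itself was tested in edgeR with the interaction of genotype with a 24 h cosine. None of the 10 genes passed, with unadjusted p values from 0.402 (Psat1) to 0.951 (Asns) and 0.448 for Trib3. The share over all genes was 0%, with 643 genes at an unadjusted p under 0.05 and no call by DESeq2. Atf4, Chac1, Sesn2, Asns and Slc7a11 were not called rhythmic in either genotype. Atf4 had a permutation p of 0.433 in control and 0.312 in diabetic retinas and an amplitude of 4.55% ± 4.12 and 5.31% ± 4.13. Slc7a11, with 19.5% ± 8.90 and 13.1% ± 6.89, had wide errors, and Asns the smallest amplitudes, 2.44% ± 2.69 and 1.37% ± 3.25.

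**Figure D4:**
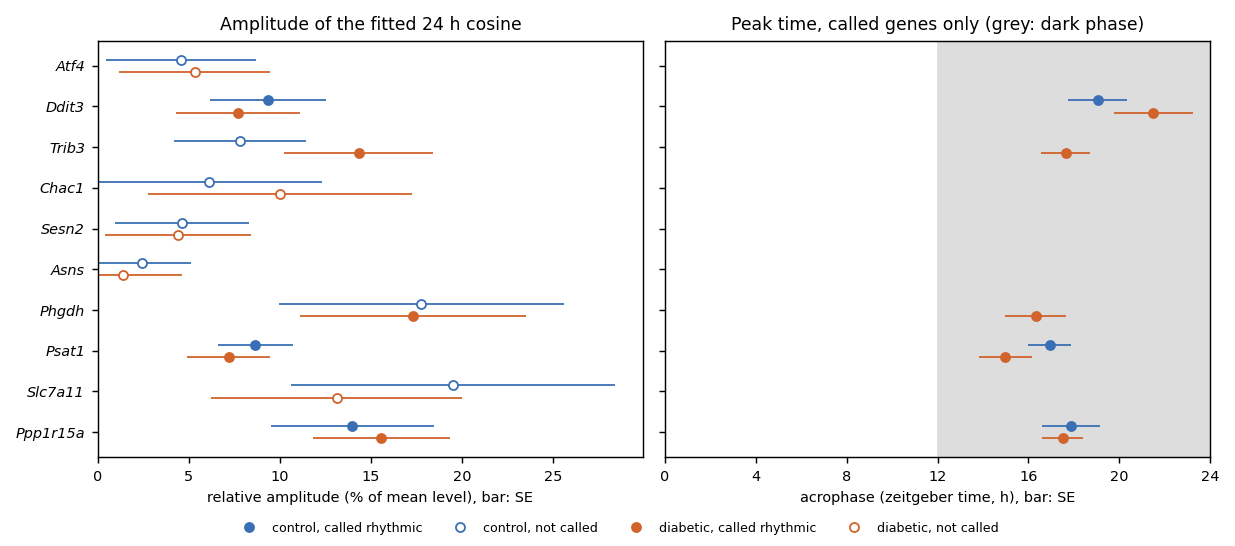
Relative amplitude of a fitted 24 h cosine in percent of the mean level (left) and fitted peak time in ZT hours for called genes (right), with SE, for control (blue) and diabetic (orange) retinas. Filled points were called rhythmic at an unadjusted permutation p under 0.05, and their peaks, 3 in control and 5 in diabetic retinas with 3 genes in both, lie in the dark phase (grey), where 49.2% and 51.8% of all rhythmic genes had theirs.

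The genes also varied among themselves within groups. The mean of each genotype and time point was subtracted from log2 CPM, and the rest was correlated over the 58 libraries, as a description, since all points share library scaling and RNA quality. Over the 45 pairs the median of Pearson's r was 0.24, from -0.29 to 0.80. Atf4 went most closely with Ppp1r15a (0.80), Sesn2 (0.75) and Ddit3 (0.735). These 4 genes had r from 0.51 to 0.80 among themselves. Asns was linked to Atf4 at 0.53 and to Chac1 at 0.52. The serine enzymes Phgdh and Psat1, which work in consecutive steps, had an r of 0.05 with each other and of 0.16 and 0.18 with Atf4. Slc7a11 went against the regulators, with -0.24 for Atf4 and -0.29 for Trib3, and had its highest r with Phgdh (0.30). Over the 55 libraries left without those apart on the first principal component the median was 0.22 (-0.27 to 0.78), with 0.38 for Ddit3 and Sesn2, and without those rich in lens markers it was 0.22 (-0.35 to 0.78), with 0.17 for Phgdh and Slc7a11 and -0.12 for Phgdh and Psat1.

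The same 4 genes followed the first principal component of all genes. Their within-group r with it was -0.84 for Sesn2, -0.81 for Atf4, -0.74 for Ppp1r15a and -0.71 for Ddit3, against 0.01 for Psat1 and 0.26 for Slc7a11. Before the group means were subtracted, 5 of the 10 genes had an r below -0.5 with this component, as did 17.8% of the 19120 genes, while 18.8% had an r above 0.5. Summed markers of several cell types moved with them as well. For Sesn2 and Atf4 the r was 0.75 and 0.73 with rod markers, 0.61 and 0.55 with ganglion cell markers, 0.57 and 0.49 with Müller glia markers, 0.47 and 0.42 with amacrine cell markers and 0.12 and 0.23 with cone markers. With bipolar cell markers it was 0.30 and 0.01. Asns had the highest r of the 10 genes with ganglion cell markers (0.71) and with amacrine cell markers (0.67). Without the libraries apart on this component, the r with it was -0.78 for Sesn2, -0.81 for Atf4, -0.74 for Ppp1r15a and -0.63 for Ddit3, and without those rich in lens markers -0.84, -0.79, -0.72 and -0.69. The part of cell makeup or RNA quality in this was not tested.

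**Figure D5:**
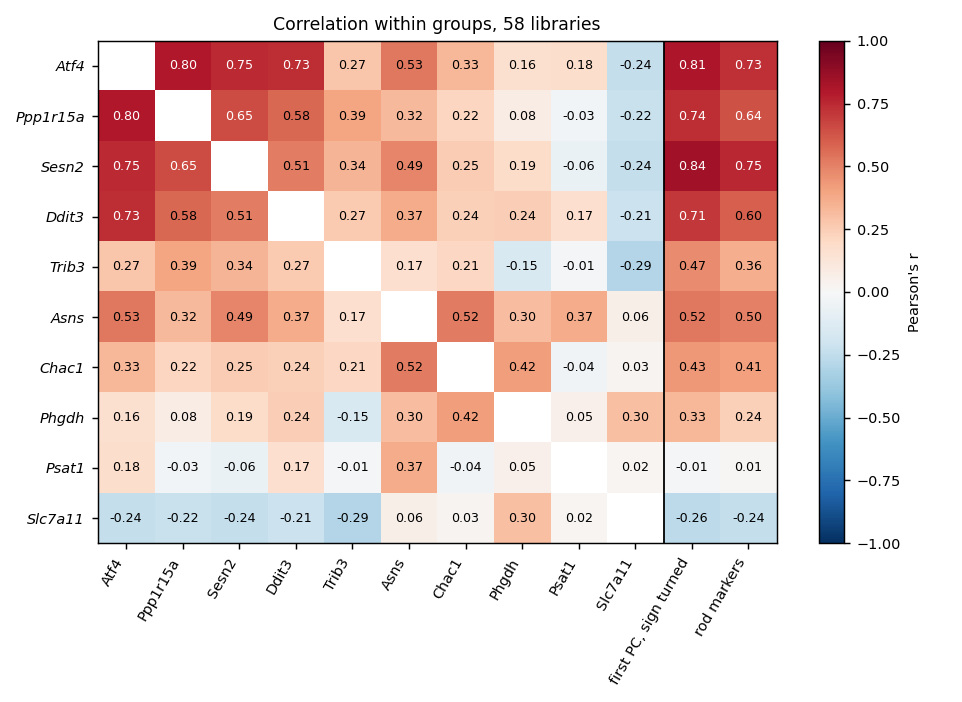
Pearson's r of log2 CPM between the 10 genes within groups, over 58 libraries, with their r with the first principal component (sign turned) and with summed rod markers to the right of the line. Atf4, Ppp1r15a, Sesn2 and Ddit3 form a block at 0.51 to 0.80, and Slc7a11 is negative with these 4 and with Trib3.

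Other genes of the pathway were taken from 6 lists. Among 16 eIF2 kinases, eIF2 and eIF2B subunits and cofactors, which act upstream of ATF4, none passed between genotypes over all time points, beside 3.00% of all genes. Their median difference was -0.02. The smallest p values belonged to Eif2ak2, the kinase PKR (0.20 on the log2 scale, adjusted p = 0.191), and Dnajc3, an inhibitor of eIF2 kinases (-0.06, adjusted p = 0.290). By the unadjusted rule 4 of the 16 were rhythmic in control retinas, led by Eif2b1 and Dnajc3, and 3 in diabetic retinas, led by Eif2s1 and Eif2ak4, beside 21.8% and 23.9% of all genes.

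Of 11 bZIP partners and repressors of ATF4, 9 were tested between genotypes over all time points and none passed, beside 3.00% of all genes. Atf3, a stress factor downstream of ATF4, differed by 0.15 (adjusted p = 0.450) and Cebpd by -0.14 (adjusted p = 0.587). Nfe2l2, the gene of NRF2, had a rhythm in both genotypes, with a permutation p of 2.1e-05 in control and 0.00928 in diabetic retinas and peaks at ZT17.1 and ZT16.7. Atf3 was called in diabetic retinas and Cebpd, the next in control, was not called.

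Among 18 further targets for amino acid synthesis and transport, 1 rose and none fell, beside the 3.00% of all genes that passed. Slc38a2, the SNAT2 transporter of neutral amino acids, ranged from 1439 to 1954 normalized counts with a median of 1627 in control and from 1491 to 3093 with a median of 2074 in diabetic retinas. The lower ends of both groups met, and values above 1954 were found in diabetic retinas alone. The difference was 0.39 ± 0.05 (log2, SE), or 31.3% more in diabetic retinas, with an adjusted p of 2.1e-07 in edgeR's test, and 0.54 at ZT17 (adjusted p = 0.0365). The difference over all time points was 0.38 and 0.40 without the libraries apart on the first principal component and without those rich in lens markers, and still passed, while the call at ZT17 was lost without the former (adjusted p = 0.262). The median over the 18 was 0.04. In this list 7 genes were rhythmic in control retinas, with Slc7a1 and Got1 in front, and 3 in diabetic retinas, with Got1 and Slc6a9 in front, beside 21.8% and 23.9% of all genes.

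Of 16 targets in signalling and stress, 14 were tested, 1 rose and none fell, again beside 3.00% of all genes. Cdkn1a, the cell cycle inhibitor p21, which p53 induces too, rose by 0.52 ± 0.12 (log2, SE) with an adjusted p of 0.00643. It ranged from 16.6 to 51.9 normalized counts in control and from 16.8 to 73.6 in diabetic retinas, which overlapped. It passed without either set of libraries in doubt, at 0.52 and 0.57. Stc2 and Ddit4 had the smallest rhythm p in control retinas, and Stc2 and Ero1l in diabetic retinas. The list's median difference was 0.02.

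The ATF6 and XBP1 arms of the unfolded protein response, which raise chaperones of the endoplasmic reticulum, had 3 of 15 genes lower and none higher, with a median of -0.13, where 3.00% of all genes passed in either direction. Those that fell were Calr (-0.27, adjusted p = 0.0200), a lectin chaperone, Dnajb11 (-0.14, adjusted p = 0.0145), a cofactor of BiP, and Creld2 (-0.20, adjusted p = 0.0279). Calr ranged from 2657 to 6669 normalized counts in control and from 2760 to 4463 in diabetic retinas, so the control group reached higher while the lower ends met. Without the libraries rich in lens markers Calr (adjusted p = 0.0559) and Creld2 (0.0624) missed the threshold, and Creld2 also without those apart on the first principal component (0.0539), while Dnajb11 passed in both fits (0.0252 and 0.0254). At ZT17, where 0.173% of all genes passed, 3 of the 15 were lower, with a median of -0.30 over the list. They were Calr (-0.63, adjusted p = 0.00829), Creld2 (-0.56, adjusted p = 0.00265) and Sdf2l1 (-0.89, adjusted p = 0.0303), the last named after its values were seen. Without the libraries apart on the first principal component, where 9 in place of 33 of all genes passed, Calr missed the threshold (0.0668) while Creld2 (0.0475) and Sdf2l1 (0.0375) passed. Without those rich in lens markers Sdf2l1 missed it (0.0671). By the unadjusted rule 10 of the 15 were rhythmic in control retinas, led by Hyou1 and Calr, and 5 in diabetic retinas, led by Xbp1 and Hsp90b1, beside the same 21.8% and 23.9% of all genes. These counts are not a difference in rhythm, a test that 0 of 19120 genes passed. The list's rhythm was not rerun without the libraries apart. Over all genes edgeR's cosine calls fell without them from 2334 to 1621 in control and from 2713 to 2369 in diabetic retinas. Of the 9 NRF2 targets, which include Slc7a11, none passed between genotypes, beside 3.00% of all genes. Srxn1 (0.08, adjusted p = 0.299) and Txnrd1 (0.04, adjusted p = 0.453) had the smallest p values. In control retinas 2 of the 9 were rhythmic, among them Hmox1, and in diabetic retinas 3, led by Gclc and Nqo1.

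Markers of retinal cell types that passed between genotypes were 2 of 5 cone markers, Gnat2 (-0.12) and Pde6h (-0.14), 1 of 5 amacrine markers, Chat (0.19), and 1 of the 4 microglia markers tested, Cx3cr1 (-0.23), where 3.00% of all genes passed. The lens marker Cryaa was lower in diabetic retinas by 5.01 on the log2 scale through the 3 control libraries named above. None of the rod, bipolar, ganglion cell or endothelial markers passed.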

How the data were processed

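RNA was sequenced from 58 retinas, 30 control and 28 diabetic. The authors aligned reads with STAR 2.7.4a to GRCm38.p5 (Gencode M15) and deposited raw HTSeq 0.11.1 counts per gene symbol, not normalized. Whether strand was used is not given in the sources used here. The counts were analysed with edgeR 4.0.16 (TMM factors, quasi-likelihood F-test, Benjamini-Hochberg over 19120 genes) in R 4.3.3. The genotypes were compared with all times pooled. Single times, time of day and the interaction of genotype and time point were tested in 1 fit of 12 groups. The cosine test and the difference in rhythm used a fit of a mean, a cosine and a sine for each genotype. DESeq2 1.42.0 gave size factors and an alternative test. Rhythm was tested on normalized counts with a re-implemented empirical JTK_CYCLE (1000000 shuffled series), in Python 3.11.15, and amplitude and peak came from a cosine fit. The difference in rhythm stands in for the study's own package. FPKM used exon lengths of Gencode M21, and correlations log2(CPM + 0.1). Both scripts were tested on simulated data. Of the 113 pairs of replicates none agreed within sampling noise (lowest chi-square per degree of freedom 1.94). Nothing in the labels ties a retina to its animal, so p-values measure the spread between these samples. Alternatives were other scaling, filters and tests, a replicate block, a time term and each library left out. Fits and correlations without the libraries that stood apart or were rich in lens markers were chosen after seeing the data.

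The 10 genes and all gene lists were chosen with earlier results of these data known. All 10 genes are named, as are, of each pathway list, up to 4 that passed over all time points (or the 2 with the smallest p where none did) and the 2 with the smallest rhythm p in each genotype. Depth ranged from 7773117 to 22147398 counts, and low genes such as Chac1 (median raw count 30) carry a larger counting error.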

Additional observations from a re-analysis of the deposited data

Results flagged for a closer look

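Of 120 groups of 4 to 6 libraries (10 genes by 12 groups), 7 held a library whose gap to its neighbour was large against the range of the group. Chance alone flags about 1 group in 20, or 6 of 120. Control ZT1 replicate 6, rich in lens markers, was flagged 3 times, for Atf4 with 3141 normalized counts (the others 2198 to 2262), for Ddit3 with 382 (321 to 329) and for Phgdh with 80.9 (24.3 to 40.6). Control ZT17 replicate 5, also rich in lens markers, was flagged for Slc7a11 with 264 normalized counts (120 to 144). The part of lens tissue in these values was not tested. The other libraries were diabetic ZT21 replicate 2, with a low Ddit3 of 264 (341 to 362), control ZT9 replicate 4, with a Chac1 of 44.2 (27.9 to 32.5), and control ZT13 replicate 4, with a Sesn2 of 392 (307 to 331).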

How the results depend on the processing

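The number of the 10 genes called at single time points, by the interaction of genotype and time point and by the difference in rhythm stayed at 0 under every alternative run. Over all time points the 0 calls became 1 with the replicate block (Atf4, adjusted p = 0.0491), 2 with the time point as a term (Atf4 and Phgdh) and 1 with both (Atf4, 0.0178, a fit added after seeing the data), and 0 to 1 with each library left out. Of all 19120 genes, 574 passed in the main fit, 515 with the block, 920 with the term and 941 with both. For time of day in control retinas the 1 call became 0 with no filter, 3 with the replicate block, 0 without the libraries rich in lens markers, and 0 to 3 with each library left out. Over all genes the calls went from 1740 of 19120 to 1290 of 37233 with no filter. They were 2456 with the block and 1428 without the libraries rich in lens markers. In diabetic retinas the 2 calls became 1 with no filter, 0 without the libraries apart on the first principal component, and 0 to 3 with each library left out. Over all genes the calls went from 1933 of 19120 to 1414 of 37233 with no filter and 1687 without the libraries apart. Rhythm calls fell to 1 in control and 1 in diabetic retinas after adjustment, to 1 and 2 with a median above 10 and adjustment, and to 2 in control and 2 in diabetic retinas by edgeR's cosine test, which with the replicate block gave 4 and 2. Over all genes the cosine test called 2334 and 2713, and 3055 and 3048 with the block. Phgdh passed the cosine test with the block in control (adjusted p = 0.0361) and not in diabetic retinas (0.203). A fold between time point means left 2 and 4, without Psat1. With each library left out they ranged from 2 to 4 in control and from 3 to 5 in diabetic retinas. On the log2 scale, signs turned for Ppp1r15a over all time points without the libraries rich in lens markers (0.0138, and 0.000653 with the time term), and for Chac1 at ZT1 without them (0.0122), at ZT5 with the replicate block (0.00407) and at ZT17 without the libraries apart (0.0695). With each library left out, the ranges that crossed 0 were -0.0353 to 0.00435 for Ddit3, -0.0222 to 0.0664 for Slc7a11 and -0.0333 to 0.0140 for Ppp1r15a over all time points, -0.301 to 0.0122 for Chac1 at ZT1, -0.231 to 0.0326 for Chac1 at ZT5 and -0.0187 to 0.184 for Atf4 at ZT9. The cause of these changes was not tested. The labels tie no replicate number to an animal, and not every same-numbered pair correlated above 0.1 (15 of 26, against 20 of 114 pairs of other numbers), so the numbers were not taken as a pairing; 26 of 52 libraries correlated best with their own number, a hint of shared structure. Depth limits Chac1 and Phgdh most, with median raw counts of 30 and 43.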
